A study of Mus musculus with 6 samples.

Results

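Cycling neutrophil precursors were the cells of cluster 4 at clustering resolution 0.1 that carried the ImmGen label Neutrophils and the phase label S or G2M in the deposited cell table. There were 7173 such cells among 69776 kept cells, and they came from all 6 libraries of the study. The study compared CD11b+ bone marrow cells of the mandible and of the femur by single-cell RNA sequencing, with 3 libraries for each site. CD11b, encoded by Itgam, is an integrin chain of the myeloid surface, and both sites were enriched for it with magnetic beads. All samples were from C57Bl/6 mice of 2 months of age with no transgene or treatment named. The femur group held 1 female sample (replicate 1) and 2 male samples, and the mandible group held 3 male samples. The labels speak of marrow flushed from femurs and tibiae, and the study's methods of femurs only. Mandibular marrow was flushed after the molars had been taken out, and the tooth sockets were flushed as well. The labels do not say how many mice went into a sample, so p-values measure the spread between these samples, which may be technical.

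Neutrophils are made in the marrow from dividing precursors that fill their granules in a set order. Proteases and myeloperoxidase of the primary (azurophilic) granules are transcribed first, lactoferrin and the cathelicidin Camp of the secondary granules next, and the gelatinases of the tertiary granules late, around the time when division ends. A dividing cell first copies its DNA in S phase, when genes of the replication fork and the clustered histone genes are transcribed, and then condenses and separates its chromosomes with the kinesins and cyclins of G2 and mitosis.

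The cells numbered 1068, 873 and 2903 in femur replicates 1 to 3 and 584, 1000 and 745 in mandible replicates 1 to 3. Their summed counts lay between 13531568 and 66651864 unique molecular identifiers (UMIs, 1 per captured transcript) per library. Median UMIs per cell were 23356, 22270.0, 21243, 22308.5, 17923.5 and 22593 in the same order, and the median share of mitochondrial UMIs lay between 0.628% and 1.39%. Femur replicate 1 had lost 18.5% of its barcodes to the study's filters against 1.88% to 5.14% in the others, and held 48 of the 61 cells with under 2000 UMIs, and 583 cells had 5000 genes or more. No doublet caller was run. Of 7165 different cell barcodes, 8 were seen in more than 1 library. No library pair had counts that agreed within sampling noise, the closest being femur replicate 2 and mandible replicate 1 with a chi-square of 6.75 per degree of freedom. Those libraries share the number in their library names, whose meaning is not given. Levels are given as CPM, the UMIs of a gene per 1000000 UMIs of the same cells and library. Transcripts are counted by UMIs near their 3′ end, and levels were not corrected for transcript length.

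The population is described here by its markers Hist1h2ap, Elane, Fcnb and Top2a. Top2a is among the genes commonly used to score G2M, so its share follows in part from the phase labels and is no independent check. Elane and Fcnb are genes by which the study characterised cluster 4. Clusters, labels and phases all came from these same counts, so the shares below describe the population and do not test it. Fcnb, encoding ficolin B, a lectin kept in neutrophil granules, had a UMI in 95.4% to 98.2% of the cells of a library, and Top2a, the topoisomerase that untangles replicated DNA, in 94.9% to 97.2%. Hist1h2ap, an H2A histone gene, had one in 89.0% to 96.1%. In B cells of cluster 6, which should lack Fcnb, the share was 1.20% to 5.69% at median depths of 2841 to 5097 UMIs, against 17926 to 23356 UMIs in the precursors. Elane, encoding neutrophil elastase, was seen in a minority of the cells. It had a UMI in 385 of 1068 cells of femur replicate 1 (36.0%, exact 95% interval 33.2% to 39.0%) and in 168 of 584 cells of mandible replicate 1 (28.8%, 25.1% to 32.6%), and the other libraries lay between 33.9% and 36.3%. The share in B cells was 0% to 5.68%. After every cell was thinned to 2000 UMIs, with 61 shallower precursors and 97 shallower B cells left out, the Elane shares were 13.9% to 20.6% in precursors and 0% to 2.27% in B cells. Ltf, encoding lactoferrin of the secondary granules, had a UMI in 99.2% to 99.9% of the precursors (96.7% to 98.3% when thinned). B cells had an Ltf UMI in up to 67.4% (13.6% to 48.7% when thinned). The stem cell marker Cd34 had 0 to 4 UMIs per library, and a count of 0 in the 1068 cells of femur replicate 1 allows up to 0.281% of them to have had a UMI, which is no limit on the cells that express the gene. Of other stem and early progenitor genes, Flt3, Sox4 and Meis1 had 0 to 24 UMIs per library. Kit and Hlf had more, with 369 to 1459 and 127 to 636 UMIs, and Kit was seen in 29.2% to 48.3% of the precursors (4.11% to 7.16% when thinned). Their median levels were 24.6 and 10.9 CPM in the precursors. In neutrophil-labelled G1 cells of cluster 0 they were 13.2 and 7.58 CPM, so neither gene was particular to the precursors. Intervals and limits cover counting error only. At this depth most cells had an Ltf UMI and no Elane UMI. A second reference used by the study labelled 3618 of them Monocytes and 3526 Granulocytes, while the summed level of 6 monocyte genes, among them Csf1r and Ccr2, was 8.68 to 34.5 CPM.

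Promoter sequences from RefSeq (build GRCm38.p6) were read for genes of the lists below, and 150 bases upstream of the start are shown for 7 genes whose levels the results turn on. Elane (chr10:79886162-79886311, plus strand), Prtn3 (chr10:79879517-79879666, plus strand) and Fcnb (chr2:28084879-28085028, minus strand) are shown as markers of the population and its finer clusters, and capitals mark AGGAAGT, the letters of an ETS motif of the kind bound by PU.1.
Elane: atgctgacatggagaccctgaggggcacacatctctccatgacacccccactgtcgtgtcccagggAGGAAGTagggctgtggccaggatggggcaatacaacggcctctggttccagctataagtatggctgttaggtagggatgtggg
Prtn3: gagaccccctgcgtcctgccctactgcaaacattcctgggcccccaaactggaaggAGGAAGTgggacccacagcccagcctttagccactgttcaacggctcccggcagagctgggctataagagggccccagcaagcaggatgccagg
Fcnb: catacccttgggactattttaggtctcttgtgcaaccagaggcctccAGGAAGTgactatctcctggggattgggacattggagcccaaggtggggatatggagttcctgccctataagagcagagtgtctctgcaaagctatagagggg
AGGAAGT was found on either strand in the 300.0-base window (250 bases before and 50 after the start) of 6 of 8 primary granule genes with a promoter in the table, out of 10 in the list, and of 4 of 11 secondary granule genes, out of 12. It was found for 10.7% of all 27025 genes of the table.

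Mcm6 (chr1:128359706-128359855, minus strand), a subunit of the replicative helicase, stands for the S phase genes, with matches to the E2F motif TTTNNCGC in capitals, where a pair of matches on opposite strands overlap. Top2a (chr11:99024190-99024339, minus strand) stands for the G2 and mitosis genes, with the CCAAT box of NF-Y in capitals on either strand. The H2B genes Hist1h2be (chr13:23585971-23586120, minus strand) and Hist1h2bk (chr13:22035671-22035820, plus strand) stand for the clustered histones, with the octamer ATTTGCAT in capitals, and were the pair of H2B genes with the lowest p in the site comparison among those with an octamer in the stretch shown.
Mcm6: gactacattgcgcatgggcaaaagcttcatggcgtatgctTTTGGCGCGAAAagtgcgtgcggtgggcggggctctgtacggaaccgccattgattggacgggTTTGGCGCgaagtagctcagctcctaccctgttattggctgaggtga
Top2a: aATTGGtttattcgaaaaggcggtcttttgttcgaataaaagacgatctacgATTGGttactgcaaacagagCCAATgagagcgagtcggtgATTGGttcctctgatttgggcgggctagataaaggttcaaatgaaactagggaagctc
Hist1h2be: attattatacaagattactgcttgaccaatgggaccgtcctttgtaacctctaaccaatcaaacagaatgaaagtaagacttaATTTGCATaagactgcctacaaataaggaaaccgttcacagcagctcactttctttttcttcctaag
Hist1h2bk: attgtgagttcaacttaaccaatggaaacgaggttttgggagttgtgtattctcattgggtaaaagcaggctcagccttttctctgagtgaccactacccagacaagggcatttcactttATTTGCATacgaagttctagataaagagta
TTTNNCGC was found for 19 of 45 DNA replication genes (42.2%) against 5.93% of all genes. CCAAT was found for 46 of 64 mitosis genes (71.9%) and 53 of 62 clustered histone genes (85.5%) against 41.1% of all genes. The octamer was found for 7 of 16 clustered H2B genes (43.8%), for 14 of 62 clustered histone genes and for 1.97% of all genes. TTTGAA, the letters of the cell cycle homology region, was found for 43 of 64 mitosis genes (67.2%) against 20.2% of all genes. The lists held 58, 77, 67 and 18 genes for DNA replication, mitosis, clustered histones and H2B before matching. A match of letters is a description and not a bound site.

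The phase labels divided the population into 2869 S cells and 4304 G2M cells. A cell counts as cycling with a score above 0 on either phase, and the larger score was under 0.1 in 126 of the 7173 cells. What follows within and between phases is a description, since the labels were made from these same transcripts. All 57 DNA replication genes with at least 10 CPM had lower levels in G2M than in S cells in 6 of 6 libraries, with a median log2 ratio of -1.09. Of all genes at that minimum 33.1% were higher and 22.5% lower in G2M cells in 6 of 6 libraries. Ccne2, the cyclin that opens S phase, had median levels of 136 CPM in S and 13.9 CPM in G2M cells, and Mcm6 had 117 and 20.9 CPM. Of 75 mitosis genes, 72 had higher levels in G2M cells in all libraries. Among them Aspm, of the spindle poles, had 10.9 to 15.1 CPM in S and 74.1 to 103 CPM in G2M cells, and Ube2c, the ubiquitin-conjugating enzyme of mitotic exit, had 99.8 and 602 CPM. Primary granule genes were lower in G2M cells in 6 of 6 libraries for 8 of 9 genes. Elane had a median of 830.5 CPM in S and 343 CPM in G2M cells. Secondary granule genes showed no shared direction, with 5 higher and 4 lower in all libraries among 12, shares not far from those of all genes. Clustered histone genes, whose products package new DNA, were higher in G2M-labelled cells in 6 of 6 libraries for 40 of 52 genes, at a median log2 ratio of 0.54.

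A finer clustering in the deposited table, at resolution 0.5, put 4747 of the cells in sub-cluster 6, 1720 in sub-cluster 10 and 702 in sub-cluster 11, with 4 cells elsewhere. These are named by their leading genes. Sub-cluster 10 led with Mpo, encoding myeloperoxidase, Elane, Ctsg (cathepsin G) and Prtn3 (proteinase 3). Elane in sub-cluster 10 measured 1857, 2154 and 1867 CPM in the femur libraries and 1999, 4137 and 3875 CPM in the mandible libraries. In sub-cluster 6 Elane measured 23.5, 41.9 and 41.5 CPM in femur and 15.8, 111 and 74.3 CPM in mandible libraries. The lowest value of sub-cluster 10 was above the highest of sub-cluster 6. S cells made up 70.1% to 90.2% of sub-cluster 10 against 21.7% to 38.4% of sub-cluster 6. Median depth was close in both, at 20186 and 21646 UMIs. Against sub-cluster 6, sub-cluster 10 had higher levels of 79 of 79 ribosomal protein genes in all libraries (median log2 ratio 1.13) and lower levels of 44 of 52 clustered histone genes (median -1.02), where of all genes 24.5% were higher and 39.3% lower. Fcnb was spread more evenly, with medians of 2484 CPM in sub-cluster 10, 1112 CPM in sub-cluster 6 and 1291 CPM in sub-cluster 11. Sub-cluster 11 held 0% to 4.76% S cells and led, against sub-cluster 6, with Elane (median 230 CPM), Cdc25b, Prtn3, Cdc20 and Ccnb1. Cdc25b, Cdc20 and Ccnb1 encode a phosphatase, an anaphase activator and a cyclin of mitosis. Its Hist1h1b, a linker histone gene, had a median of 104 CPM against 1133 CPM in sub-cluster 6, and 51 of 52 clustered histone genes were lower there in all libraries, as were 32.8% of all genes. The defining genes of a cluster are a description of how it was drawn.

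**Figure D1:**
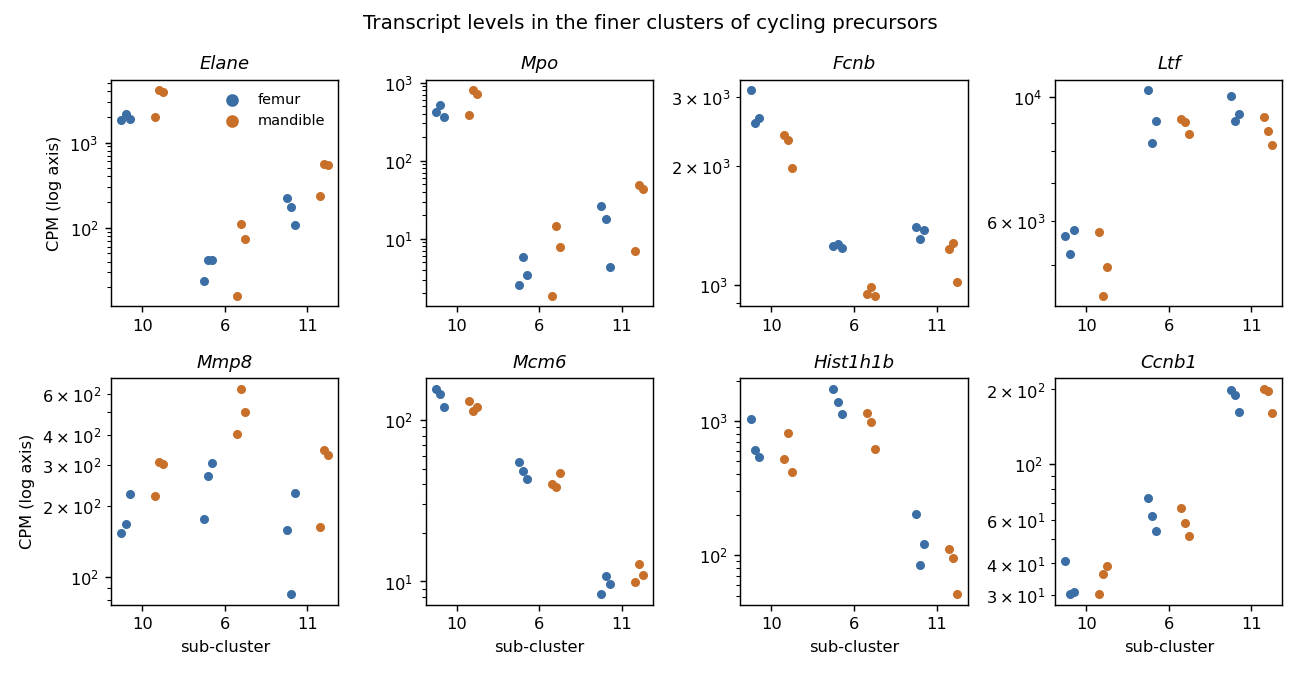
CPM on log axes of 8 genes in sub-clusters 10, 6 and 11 of the cycling precursors, 1 point per library, femur in blue and mandible in orange. Elane and Mpo are highest in sub-cluster 10, with Elane from 1857 to 4137 CPM, Mcm6 has medians of 127, 45.1 and 10.4 CPM in the order shown, and Ccnb1 is highest in sub-cluster 11.

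The share of each site's cells was compared over libraries with 2-sided exact permutation tests of 20 assignments, where the smallest p 3 against 3 libraries allow is 0.10. Cycling precursors made up 10.4%, 7.52% and 12.7% of kept cells in femur and 6.79%, 11.4% and 9.60% in mandible libraries. The means were 10.2% ± 2.61 and 9.27% ± 2.33 (SD, n = 3 each), the sites overlapped, and the exact permutation p was 0.70 (adjusted over 4 measures 0.90). S cells were 33.8%, 41.7% and 41.9% of the precursors in femur and 36.0%, 39.7% and 43.1% in mandible libraries, with an exact permutation p of 0.90 (adjusted 0.90). Median UMIs per cell gave an exact permutation p of 0.70 (adjusted 0.90). Of the neutrophil-labelled cells of cluster 4, cycling cells were 99.3%, 99.4% and 99.1% in femur and 98.3%, 97.6% and 98.5% in mandible libraries. All mandible values were lower, by 1.15 percentage points on average, with the smallest exact permutation p the design allows, 0.10 (adjusted 0.40). Sub-cluster 10 took 29.8%, 24.5% and 25.2% of the precursors in femur and 23.8%, 19.1% and 16.9% in mandible libraries, and the sites did not overlap. Sub-cluster 11 took 10.7%, 9.51% and 7.92% in femur and 12.5%, 11.8% and 11.3% in mandible libraries, and those sites did not overlap either. Both had an exact permutation p of 0.10 (adjusted over 3 sub-clusters 0.15), and this family was chosen after the values were seen. Sub-cluster 6 took 59.6% to 66.8% in femur and 63.7% to 71.7% in mandible libraries, which overlapped.

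**Figure D2:**
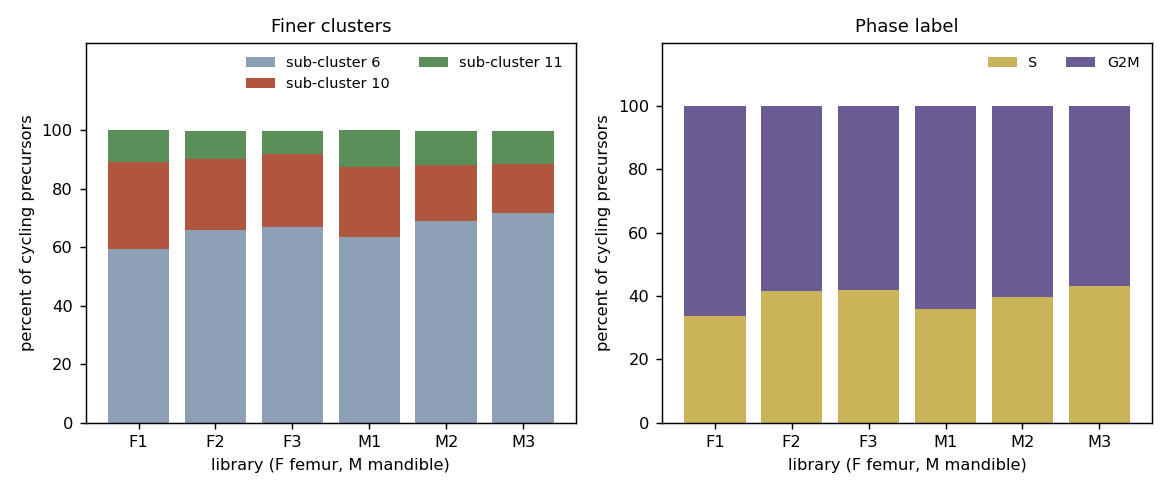
Percent of cycling precursors by finer cluster (left) and phase label (right), 1 bar per library, F for femur and M for mandible replicates. Sub-cluster 10 takes 24.5% to 29.8% in femur and 16.9% to 23.8% in mandible libraries, and the S share overlaps between the sites.

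Sites were then compared gene by gene on the summed counts of the cycling precursors with edgeR's quasi-likelihood test. At a false discovery rate (FDR) of 0.05, 3 of 11951 genes differed, which is 0.0251% of the genes tested. Nt5e and Amelx rose in the mandible and A330040F15Rik fell. In summed counts, fewer cells with a transcript and less of it per cell cannot be told apart. At an unadjusted p under 0.05 there were 1212 genes (10.1%), 4.23% higher and 5.91% lower in the mandible, and the median log2 fold change of all genes was 0.00. Libraries of the sites did not overlap, with the mandible lower, for 11.2% of genes, and with the mandible higher for 3.98%.

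Nt5e, encoding the ectonucleotidase CD73 (mm10 chr9:88327197-88372092), measured 7.50, 8.18 and 7.17 CPM in femur and 12.6, 14.5 and 15.1 CPM in mandible libraries. Every mandible library was above every femur library, and the log2 fold change was 0.95 (SE 0.12, edgeR adjusted p 0.0474). A330040F15Rik, a processed transcript without a known protein (mm10 chr19:12517915-12596566), measured 17.3, 14.3 and 13.7 CPM in femur and 6.13, 5.59 and 4.48 CPM in mandible libraries. The sites did not overlap, and the log2 fold change was -1.42 (SE 0.15, edgeR adjusted p 0.0143). Its span overlaps 5 other annotated genes and counting by strand is not stated, so its reads could belong to a neighbour. The edgeR adjusted p of Nt5e passed 0.05 in 1 of the 6 fits that each leave out a library, the one without mandible replicate 1 (0.0434), and was 0.106 to 0.282 in the others, without femur replicate 1, 2 or 3 or mandible replicate 2 or 3. It also missed 0.05 with library sizes alone (0.0934), in S cells (0.190), in G2M cells (0.157), in cells under 5000 genes (0.183) and in sub-cluster 10 (0.568), where the log2 fold change of Nt5e was 0.42. That of A330040F15Rik passed without mandible replicate 1 (0.0228) or 3 (0.0457) and was 0.0620 to 0.0982 without femur replicate 1, 2 or 3 or mandible replicate 2, 0.215 in S cells and 0.393 in sub-cluster 10.

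Amelx, encoding amelogenin, the main enamel matrix protein (mm10 chrX:169176114-169187200), had 0, 1 and 0 UMIs in femur and 84, 157 and 169 UMIs in mandible libraries, or 6.21, 7.84 and 9.24 CPM in the latter. The edgeR adjusted p was 5.96e-05, and stayed past 0.05 without each library in turn, at 0.000154 to 0.00135. It was 1.48e-39 in the edgeR fit without the filter on low counts, where variance is shared over 22348 genes. A p of that size is no measure of the spread between 3 libraries a site. In the mandible libraries 44 of 584, 56 of 1000 and 84 of 745 precursors had an Amelx UMI, and so did 1, 3 and 9 of 83, 344 and 229 B cells of cluster 6. After thinning to 2000 UMIs the shares were 0.856%, 1.20% and 1.75% of precursors and 1.22%, 0.755% and 2.27% of B cells. Summed over 10 tooth and bone genes, the level was 2.25, 2.22 and 2.78 CPM in femur and 14.3, 19.3 and 18.1 CPM in mandible precursors, and 59.2, 136 and 405 CPM in all kept cells of the mandible libraries. Dspp, the defining odontoblast gene of that list, was at 0 in all 6. Of the 10 genes 4 passed the filter on low counts, and Amelx, Col1a2 and Sparc did so through their mandible libraries alone. Ibsp, a bone matrix gene that did not pass, had 0.287, 0.505 and 0.210 CPM in femur and 0.222, 0.200 and 0.219 CPM in mandible libraries, which overlapped. Whether free RNA gave these UMIs was not tested.

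The clustered histone genes encode the core and linker histones made in S phase, and their fitted values all leaned to the femur. Of 61 tested genes out of 67, 50 of them on chromosome 13, every one had a fitted log2 fold change below 0, from -1.22 to -0.14, with a median of -0.51. At an unadjusted p under 0.05, 54 were lower (5.91% of all genes tested were) and 45 had no overlap with the mandible lower (11.2% of all genes). None of the 61 passed FDR 0.05 in edgeR, where the lowest adjusted p was 0.176, while 21 passed in DESeq2 (0.825% of all genes it tested) and 49 in edgeR without the filter on low counts (1.96% of all genes in that fit). Calls of the fit without the filter lean on variance shared over 22348 genes. Their summed level was 8485, 9242 and 7558 CPM in femur and 6862, 5143 and 6741 CPM in mandible libraries. All 3 mandible sums were below all femur sums. Most clustered histone transcripts carry no poly(A) tail and the library kit captures such tails, so these levels are of the part that was captured, and near-identical histone copies can share reads.

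By histone type the median log2 fold change was -0.46 for 5 linker H1 genes, -0.44 for 16 H2A, -0.54 for 15 H2B, -0.59 for 12 H3 and -0.60 for 13 H4 genes, and at an unadjusted p under 0.05 these counted 5, 11, 15, 11 and 12 lower genes. Hist1h2bc, an H2B gene, measured 53.6, 48.7 and 56.1 CPM in femur and 33.3, 31.3 and 30.7 CPM in mandible libraries, with no overlap and a fitted difference of -0.68 on the log2 scale (SE 0.10, adjusted p 0.176 in edgeR). Hist1h2ac, an H2A gene next to it that overlaps 2 other annotated genes, measured 55.2, 55.8 and 67.2 CPM in femur and 32.4, 33.2 and 38.8 CPM in mandible libraries (log2 fold change -0.72, SE 0.12). Hist1h2bl and Hist2h2be, a pair of H2B genes of low level, had log2 fold changes of -0.83 (SE 0.13) and -0.92 (SE 0.15) at the same adjusted p. The linker gene Hist1h1b measured 1358, 1068 and 884 CPM in femur and 857, 835 and 518 CPM in mandible libraries, where the sites stood close but did not overlap. Its log2 fold change was -0.50, and -0.29 without mandible replicate 3. The marker Hist1h2ap varied between libraries, at 1475, 2866 and 1954 CPM in femur and 1708, 921 and 2943 CPM in mandible libraries, and its log2 fold change of -0.14 (SE 0.36) lay within that spread. The pair with octamers shown above, Hist1h2be and Hist1h2bk, had log2 fold changes of -0.60 and -0.54.

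The histone sums were then split by phase and finer cluster. In G2M cells the histone sum was 9256, 10502 and 8876 CPM in femur and 7624, 5565 and 7217 CPM in mandible libraries, without overlap. In S cells it was 6722, 7310 and 5712 CPM in femur and 5418, 4555 and 6148 CPM in mandible libraries, and the sites overlapped. Fitted on S cells alone, 36 of 60 histone genes were lower at an unadjusted p under 0.05 (median -0.39), as were 6.01% of all genes. On G2M cells alone 55 of 61 were lower (median -0.59), beside 5.65% of all genes. In sub-cluster 6 the sum was 11184, 12302 and 9757 CPM in femur and 9428, 6254 and 8289 CPM in mandible libraries, and 53 of 61 genes were lower (median -0.58), beside 5.69% of all genes. In sub-cluster 10 the sums of 5281, 4381 and 3961 CPM in femur and 3268, 3785 and 4125 CPM in mandible libraries overlapped, and 21 of 57 genes were lower (median -0.33), beside 4.8% of all genes. The sub-cluster fits were chosen after the data were seen. Mandible replicate 2 had the lowest sum over all precursors and also the lowest median UMIs per cell, whose part was not tested. Leaving out 1 library at a time gave 44 to 54 histone genes lower at an unadjusted p under 0.05, against 4.14% to 6.44% of all genes, with 47 without mandible replicate 2 and 48 without femur replicate 1, the female sample.

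**Figure D3:**
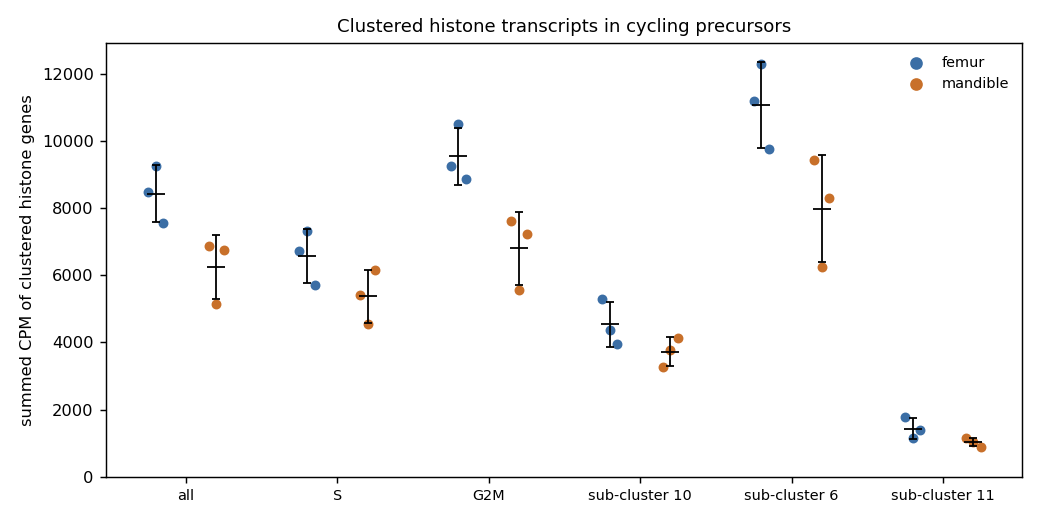
Summed CPM of 67 clustered histone genes in all cycling precursors, in S and G2M cells and in the finer clusters, 1 point per library, with bars for the mean and SD (n = 3 per site). Over all precursors the femur libraries lie between 7558 and 9242 CPM and the mandible libraries between 5143 and 6862 CPM.

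Among DNA replication genes, of 58 tested, none passed FDR 0.05 in edgeR, 12 were lower and none higher at an unadjusted p under 0.05 (5.91% and 4.23% of all genes were), and the median log2 fold change was -0.12. Atad2, a chromatin ATPase of S phase, measured 190, 156 and 149 CPM in femur and 133, 99.1 and 119 CPM in mandible libraries (log2 fold change -0.43, SE 0.11, edgeR adjusted p 0.264). Hells, a chromatin remodeller, had a log2 fold change of -0.36 (SE 0.10). Cdc6, which loads the helicase, had -0.44 (SE 0.14), and Mcm6 had -0.24 (SE 0.08). Over all precursors the sites did not overlap for any of these genes. The genes of highest level in that list, Rrm2, a subunit of ribonucleotide reductase, and Pcna, the sliding clamp, had 0.03 (SE 0.08) and -0.14 (SE 0.10), the former turning to -0.03 with library sizes alone. Part of this list is also used to score S phase, so it is not independent of the phase labels. Within S cells Mcm6 overlapped between the sites, at 171, 129 and 111 CPM in femur and 123, 90.3 and 98.9 CPM in mandible libraries. It also overlapped in sub-cluster 10, where its level was highest. That sub-cluster took a smaller share of the precursors in every mandible library than in any femur library, whose part was not tested.

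Mitosis and cell cycle control genes were mixed. Of 77 mitosis genes, 1 was higher and 9 lower at an unadjusted p under 0.05 (median -0.04), beside 4.23% and 5.91% of all genes. Ube2c was the higher one, at 371, 373 and 381 CPM in femur and 436, 458 and 448 CPM in mandible libraries, with no overlap and a fitted difference of 0.31 on the log2 scale (SE 0.10, adjusted p 0.337 in edgeR). The kinesins Kif15 and Kif4 and the spindle factor Dlgap5 had log2 fold changes of -0.25, -0.28 and -0.23. Hmgb2, a chromatin protein, had 0.08 (SE 0.13), and Top2a had -0.31 (SE 0.16, edgeR adjusted p 0.547). Top2a was -0.18 without femur replicate 1 and also without mandible replicate 3, and Kif15 and Kif4 were both -0.16 without femur replicate 1. Of 41 cell cycle control genes 4 were higher and 10 lower (median -0.12), against the same shares of all genes. The retinoblastoma gene Rb1 measured 138, 110.4 and 107 CPM in femur and 98.7, 84.4 and 92.0 CPM in mandible libraries, the cyclin gene Ccnd2 had a log2 fold change of -0.79 (SE 0.26), and Lin37, of the DREAM complex, and the inhibitor gene Cdkn1a had 0.34 and 0.42. Ccnd3 and Btg1, a cyclin and an antiproliferative gene, had 0.20 (SE 0.12) and 0.01 (SE 0.17), the latter turning to -0.06 with library sizes alone.

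**Figure D4:**
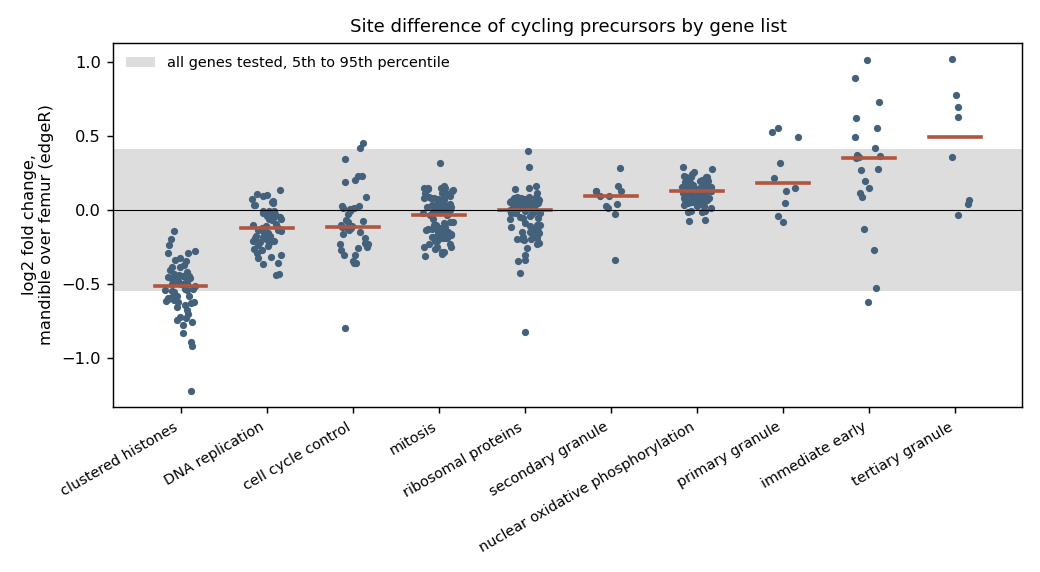
Log2 fold change (mandible over femur, edgeR) of each tested gene in 10 lists, with the list median as a red line and the 5th to 95th percentile of all 11951 genes as a grey band. All 61 clustered histone genes lie below 0, with a median of -0.51, and the tertiary granule median is 0.49.

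Of 8 tertiary granule genes 4 were higher and none lower at an unadjusted p under 0.05, those 4 did not overlap between the sites, and the median log2 fold change was 0.49. The summed level of the 8 genes did overlap, at 1625, 2182 and 2879 CPM in femur and 2543, 3765 and 3344 CPM in mandible libraries. Of all genes 4.23% were higher at that p and 3.98% did not overlap with the mandible higher. Mmp8, the neutrophil collagenase, was placed in this list, though its protein is commonly assigned to the secondary granules. It measured 169, 227 and 277 CPM in femur and 328, 539 and 448 CPM in mandible libraries, and the fitted log2 difference was 1.02 (SE 0.23, adjusted p 0.231 in edgeR). Mmp9, gelatinase B, measured 153, 229 and 237 CPM in femur and 290.1, 356 and 379 CPM in mandible libraries, with 0.78 (SE 0.19, edgeR adjusted p 0.259). Both passed FDR 0.05 in edgeR without the filter on low counts, at adjusted p of 2.28e-09 for Mmp8 and 1.75e-06 for Mmp9. In that fit the SEs of Fcnb, Elane, Top2a, Mmp8 and Mmp9 lay between 0.122 and 0.129, against 0.120 to 0.230 with the filter. They were thus hardly a measure of each gene's own spread between libraries. In DESeq2 Mmp9 passed (adjusted p 0.00105) and Mmp8 did not (0.132). In S cells neither Mmp8 nor Mmp9 overlapped between the sites. In sub-cluster 10 both did, with Mmp8 at 154, 168 and 224 CPM in femur and 220, 309 and 303 CPM in mandible libraries. In sub-cluster 11 Mmp8 overlapped and Mmp9 did not. Adam8, a membrane protease, had 0.63 (SE 0.15) and Mmp25, a membrane-bound metalloprotease, 0.35 (SE 0.08). Retnlg, a resistin-like gene of late neutrophils, overlapped between sites, at 498, 997 and 1643 CPM in femur and 1157, 2082 and 1709 CPM in mandible libraries. The study picked Mmp8, Mmp9 and Junb for cluster 4 from these same samples, so their direction is not independent evidence. In cycling neutrophils of cluster 0 the tertiary granule sum was 3401 to 8627 CPM against 1625 to 3765 CPM in the precursors.

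Of 10 primary granule genes 1 was higher and none lower at an unadjusted p under 0.05 (median 0.18), beside 4.23% and 5.91% of all genes, namely Elane, at 472, 522 and 492 CPM in femur and 479, 885 and 725 CPM in mandible libraries. Mandible replicate 1 lay among the femur libraries, and the log2 fold change was 0.55 (SE 0.20, edgeR adjusted p 0.393). When mandible replicate 2 was left out it was 0.31 with an unadjusted edgeR p of 0.102, and when femur replicate 1 was, 0.48 with 0.0623, so Elane was then not past 0.05. Within sub-cluster 10 the primary granule sum was 5849 to 6412 CPM in femur libraries and 5881, 10961 and 9490.0 CPM in mandible libraries, so the same replicate stood with the femur. Serpinb1a, an inhibitor of these proteases, had -0.04 (SE 0.10). Of 12 secondary granule genes none was higher and 1 lower at an unadjusted p under 0.05 (median 0.10), which for so short a list is near the share of all genes. Mmp8, counted with the tertiary list, was not among them. Camp, at 39841 to 45026 CPM in femur and 43727 to 46980.2 CPM in mandible libraries, and Ngp, neutrophilic granule protein, overlapped between the sites. The lower one was Fcnb, at 1700.0, 1555 and 1595 CPM in femur and 1304, 1263 and 1108 CPM in mandible libraries, without overlap (log2 fold change -0.34, SE 0.12, edgeR adjusted p 0.394). When mandible replicate 3 was left out Fcnb was -0.25 with an unadjusted edgeR p of 0.0985, and so no longer past 0.05. Cybb and Cyba, which encode the membrane subunits of the NADPH oxidase that makes superoxide, had log2 fold changes of 0.04 (SE 0.11) and 0.24 (SE 0.13), the former turning to -0.03 with library sizes alone.

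Immediate early genes, which answer signals within minutes and also the handling of cells, counted 9 higher and none lower of 21 at an unadjusted p under 0.05 (median 0.35), against 4.23% and 5.91% of all genes. Egr1, a zinc finger factor, measured 66.0, 61.5 and 39.1 CPM in femur and 118, 103 and 68.6 CPM in mandible libraries (log2 fold change 0.89, SE 0.21, edgeR adjusted p 0.259). Nfkbiz, an inducible regulator of NF-kB, measured 130.0, 104 and 106 CPM in femur and 140, 164 and 172 CPM in mandible libraries (0.55, SE 0.10, edgeR adjusted p 0.176). Neither gene overlapped between the sites. Junb, of the AP-1 factors, measured 121, 175 and 179 CPM in femur and 223, 288 and 191 CPM in mandible libraries (0.62, SE 0.21, edgeR adjusted p 0.368). Zfp36, which destabilises cytokine messages, had 0.36 (SE 0.10), Fosl2 0.27 (SE 0.08) and Ier2 0.28 (SE 0.12), while Jun, at 248, 190 and 246 CPM in femur and 215, 207 and 120 CPM in mandible libraries, had -0.27 (SE 0.22).

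**Figure D5:**
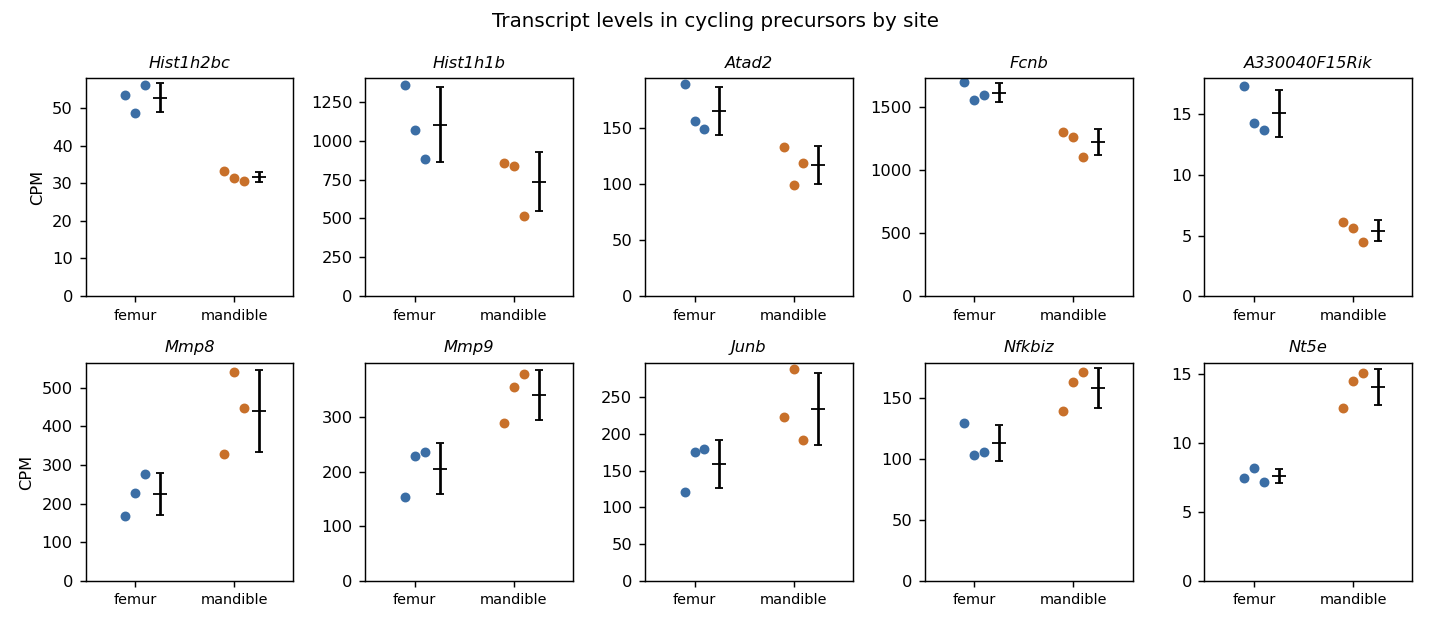
CPM of 10 genes in the cycling precursors, 1 point per library, with the mean and SD (n = 3 per site) beside the points. The sites do not overlap for any of the 10, with Nt5e between 7.17 and 8.18 CPM in femur and between 12.6 and 15.1 CPM in mandible libraries.

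Among genes of at least 10 CPM with an unadjusted p under 0.05 and no overlap, the 10 largest positive log2 fold changes were those of Mmp8, Nt5e, Thbs1, Egr1, Erp27, Mmp9, Map4k4, Slc7a11, Nabp1 and Adam8, from 1.02 down to 0.63. Thbs1, encoding the matrix protein thrombospondin 1, had means of 27.7 ± 10.6 CPM in femur and 50.1 ± 5.17 CPM in mandible libraries (SD, n = 3 each), without overlap. The 10 largest negative ones were those of A330040F15Rik, mt-Nd6, AY036118, Insyn2b, Gm20404, Filip1l, Gm32036, 5430427M07Rik, 4930444A19Rik and Hist1h4f, from -1.42 to -0.89. Of these, Gm20404, Gm32036, 5430427M07Rik and 4930444A19Rik are annotated as antisense transcripts that each overlap 1 or 2 other genes, and since counting by strand is not stated, their reads could come from the opposite gene. Mandible replicate 3 was the lowest library for all 10. Filip1l, for example, measured 58.1, 73.2 and 74.1 CPM in femur and 36.8, 45.5 and 13.4 CPM in mandible libraries. The size of several depended on 1 library. Without mandible replicate 3 the log2 fold changes were -0.84 for AY036118, -0.69 for Insyn2b, -0.65 for Filip1l, -0.64 for 5430427M07Rik and -0.60 for 4930444A19Rik, and without mandible replicate 2 that of Slc7a11 was 0.44. The unadjusted edgeR p of those falls was then 0.000775 to 0.0202, and that of Slc7a11 was 0.0662.

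The other lists are read against 4.23% higher and 5.91% lower of all genes at an unadjusted p under 0.05. Nuclear oxidative phosphorylation genes counted 4 higher and none lower of 78 (median log2 fold change 0.13), the proteasome 4 higher of 37 (0.09), glycolysis 1 higher of 19 (0.13), and ribosomal proteins 5 lower of 81 (0.00). Of the oxidative phosphorylation genes 72 of 78 had a fold change above 0, where 6047 of 11951 genes tested did, and 10 did not overlap with the mandible higher, as 3.98% of all genes did not. Their median was 0.07 with library sizes alone, where the median of all genes was -0.06 in place of 0.00. It was 0.06 without femur replicate 1. Endoplasmic reticulum folding counted 2 higher and 1 lower of 33 (0.06), ribosome biogenesis 2 and 1 of 54 (-0.02), adhesion and egress 3 and 3 of 21 (0.04), mitochondrially encoded genes 2 lower of 13 (-0.14) and interferon-stimulated genes 1 lower of 27 (-0.15). Granulopoiesis factors and receptors counted 0 of 32 in either direction (0.07), among them Cebpe, the factor of secondary granule genes, at 497, 555 and 537 CPM in femur and 551, 560.2 and 601 CPM in mandible libraries. Of marker genes of other cells that passed the filter on low counts, which a gene can pass through 1 site, 5 of 5 erythroid genes had a fold change above 0 (median 2.34, 4 at an unadjusted p under 0.05), as had 6 of 6 monocyte genes (1.11, 2), 3 of 3 B lineage genes (1.13), 2 of 2 dendritic cell genes (0.47), 2 of 2 T and NK genes (0.29) and 1 of 3 stem cell genes. Cd79a and Ebf1 of the B lineage list and Irf8 and Ly86 of the monocyte list would not have passed through their femur libraries alone. A fold change above 0 was thus favoured for them. Nkg7, of the T and NK list, was at 61.8 to 87.6 CPM in the precursors, with medians of 200 CPM in sub-cluster 10 and 32.2 CPM in sub-cluster 6. Cd3e of that list had 0 UMIs in every library. Kit, of the stem cell list, was seen in 29.2% to 48.3% of the precursors. The T and NK and stem cell counts are therefore no measure of other cells. Monocyte genes summed to 8.68, 28.4 and 10.5 CPM in femur and 13.1, 33.8 and 34.5 CPM in mandible precursors, and B lineage genes to 2.70, 7.98 and 2.12 CPM in femur and 3.77, 12.2 and 10.1 CPM in mandible precursors. Erythroid genes summed to 12.5, 18.8 and 35.0 CPM in femur and 18.8, 218 and 114 CPM in mandible precursors, and basophil and mast cell genes to 2.16 to 2.70 CPM in femur and 1.63, 22.6 and 47.0 CPM in mandible precursors. Their part in the results above was not tested.

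Lastly, the precursors were set against their nearest neighbours, the 85 neutrophil-labelled G1 cells of cluster 4 and the 1156 cycling neutrophils of cluster 0. Compared with cycling cells of cluster 0, the precursors had higher levels of Elane (median 507 against 13.3 CPM), Prtn3 (409.7 against 29.3 CPM) and Hist1h1b (870.2 against 91.6 CPM) in 6 of 6 libraries, and of 52 of 53 DNA replication genes. They had lower levels of Il1b, encoding interleukin 1 beta (57.4 against 185 CPM), and of all 8 tertiary granule genes. Of all genes 27.1% were higher and 26.8% lower in 6 of 6 libraries. The median log2 ratio of mitosis genes was 0.74. The precursors were the deeper cells, with a median of 21582 UMIs against 11376. These contrasts follow the clusters and are a description. Whether the site difference itself differed was tested with limma on the per-library difference of log2 CPM. Against cycling cells of cluster 0, 0 of 7510 genes passed FDR 0.05 in limma and 295 had an unadjusted p under 0.05 (3.93%). The edgeR interaction fit called 3 globin genes there, Hbb-bs (4.12, adjusted p 0.000139), Hba-a1 (3.85, adjusted p 0.00104) and Hba-a2 (3.42, adjusted p 0.00104). Histone genes had a median difference of 0.09 in limma, and none of 36 had an unadjusted p under 0.05. Primary granule genes counted 3 higher of 8 (median 0.51) beside 2.36% of all genes, and DNA replication genes 5 lower of 42 (median -0.22) beside 1.57% of all genes, with no adjusted call in limma. The histone sum in cluster 0 was 2033, 824 and 1809 CPM in femur and 676, 1448 and 1095 CPM in mandible libraries. The lowest p were those of Pop4 (1.35, SE 0.15, limma adjusted p 0.455), Hba-a2 (2.84), Hbb-bs (3.33), Cbwd1 (0.87) and Cdk5rap3 (1.06), of which Hba-a2 and Hbb-bs are globin genes. Against G1 cells, of which a library held 5 to 27, 0 of 3577 genes passed FDR 0.05 in limma (0 by the edgeR interaction fit) and 144 had an unadjusted p under 0.05 (4.03%). Without femur replicate 3, the 5 genes Anln, Tshr, Efcab11, Mtch1 and Kif4 passed (limma adjusted p 0.0332 to 0.0360, values below 0). Ncapg2, a condensin subunit gene, had the lowest p there (-1.27, SE 0.25, limma adjusted p 0.885), followed by Usp1 (-1.55), Ppp1r11 (1.02), Kif4 (-2.72) and Depdc1a (-1.31). At an unadjusted p under 0.05, 3 of 19 histone genes (median -1.22) and 13 of 59 mitosis genes (median -0.75) were lower there, beside 2.54% of all genes.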

How the data were processed

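Single-cell RNA sequencing (10x 3′ libraries) had been run on CD11b+ marrow cells of 3 femur and 3 mandible samples. The authors deposited 1 matrix a sample with raw UMI counts on mm10. The submitters' processing notes name Cell Ranger 7.0.1 and R 4.1.0, and the matrix header names 7.1.0. Whether counting used the strand is not given in the sources used here. The cell table deposited by the authors gives counts per cell, mitochondrial percent, phase scores, cluster numbers and SingleR labels. Kept cells had 601 to 5999 genes, and the authors name an upper gene limit but no doublet removal. Clusters came from the authors' integrated values, with cell cycle score differences regressed out, which bears on which cells are members and not on their counts. The deposited marker table holds log2 fold changes and p-values of clusters against other cells and was not used.

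Counts of the 7173 members were summed per library, over 32285 genes. Sites were compared with edgeR 4.0.16 (R 4.3.3, quasi-likelihood, TMM, default filter, no covariate). Shares were compared with exact permutation tests. Differences of site differences used limma 3.58.1 with a prior count of 2. The scripts were tested on simulated data. Alternatives were DESeq2 1.42.0, library sizes alone, no filter, each library left out, replicate blocks, S or G2M cells only, cells under 5000 genes, all neutrophil-labelled cells of cluster 4, a prior count of 0.5 and an edgeR interaction. Positions are from GENCODE M21 on mm10.

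The members and lists were chosen with earlier results of these data known. Named genes were the markers, genes past FDR 0.05 (without Xist, Tsix and Y-linked genes), the 10 largest log2 fold changes in each direction of at least 10 CPM with an unadjusted p under 0.05 and no overlap, up to 4 genes of lowest p under 0.05 and the 2 of highest level in each cell cycle, granule, oxidase and immediate early list, Junb, Mmp8 and Mmp9, the 5 of lowest p in each difference of site differences, and leading genes of the described ratios, computed on CPM plus 1 for genes of at least 50 CPM with the same sign in 6 of 6 libraries. Among the genes this rule names, 1 is not reported here. Genes of the other lists are counted only, apart from Cebpe, Il1b, Cd34 and the marker genes.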

Additional observations from a re-analysis of the deposited data

How the results depend on the processing

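The count of 3 genes past FDR 0.05 between sites depended on the processing. It was 104 with DESeq2, 438 without the filter on low counts, 1 in S cells only and 1 in sub-cluster 10 only, the last added after the data were seen. It ranged from 1 to 5 when 1 library was left out, reaching 5 when the first mandible replicate was dropped, 2 when the third was, and 1 when the second mandible or any femur replicate was. The cause was not tested. With a replicate block on the number in the titles it was 12, and with a block on the number in the library names, over 4 libraries, 375. Mmp8 and Mmp9 passed with both blocks (edgeR adjusted p 0.0307 and 0.0376 by title, 1.43e-05 and 0.000668 by library name), and by library name Hist1h2ap was -0.87 (SE 0.085, adjusted p 3.42e-06 in edgeR) and Top2a -0.037. Within the numbered pairs Hist1h2ap was -0.747 and -1.08 on the log2 scale, and -0.14 (SE 0.36) in the main fit. A block over 4 libraries leaves little spread within a gene to measure. Its SEs, p-values and calls therefore rest largely on variance shared over genes. Of 71 named genes 3 passed, against 20 in DESeq2, 34 without the filter, 9 with the title block and 37 with the block on library names. P-values of the fit without the filter lean on variance shared over 22348 genes and are no measure of each gene's own spread. Deviations of same-numbered samples correlated at 0.195, -0.088 and 0.156 by title and at 0.0746 and 0.183 by library name. Femur and mandible samples with different numbers in the library names lay between -0.310 and 0.195. The closest pair in counts, femur replicate 2 and mandible replicate 1, shares that number. So do femur replicate 3 and mandible replicate 2, its closest library (chi-square 18.15 per degree of freedom). The meaning of the numbers is not given, so the main fit used no pairs, and a shared origin was not tested. An unadjusted edgeR p under 0.05 was lost in at least 1 of the fits without a library for Junb, Slc7a11, AY036118, Insyn2b, Mcm6, Hist1h1b, Kif15, Kif4, Dlgap5, Cdkn1a and Ier2. The site difference against cluster 0 gave 3 genes in the edgeR interaction fit, and that against G1 cells gave 0 to 5 when 1 library was left out, with 5 without femur replicate 3.

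The site differences of 3 measures changed sign, while that of the cycling share of cluster 4 neutrophils stayed below 0 in every alternative run. For the share of kept cells the difference ranged from -2.30 to 0.305 percentage points with 1 library left out, and for median UMIs from -2174 to 161. The S share difference ranged from -2.21 to 2.27, and was -0.826 in cells under 5000 genes and -3.96 with the block on library names.

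Small log2 fold changes that changed sign were these. With library sizes alone, where the median of all genes was -0.06 in place of 0.00, they were -0.0024 for Itgam, -0.027 for Cybb, -0.031 for Rrm2 and -0.062 for Btg1. In S cells they were 0.022 for Hist1h2ap and -0.056 for Cdk5rap3, and in G2M cells -0.030 for Rrm2 and -0.052 for Btg1. In sub-cluster 10 they were 0.065 for Hist1h2ap, 0.071 for Serpinb1a, -0.087 for Itgam, -0.084 for Cybb, 0.042 for Pcna, -0.067 for Btg1, -0.026 for Hba-a2 and -0.00048 for Cbwd1. For Btg1 they were also -0.0063 without the filter, -0.024 with the title block and -0.047 in cells under 5000 genes, and for Jun 0.0078 with the block on library names. With 1 library left out they ranged from -0.60 to 0.17 for Hist1h2ap, -0.086 to 0.032 for Serpinb1a, -0.0061 to 0.096 for Cybb, -0.19 to 0.18 for Btg1 and -0.027 to 0.29 for Pop4. Over the alternatives, values that answer a comparison kept side and direction 58 times and changed sign 7 times, and counts of calls lay over 1.5 times lower 6 times and higher 7 times. Of the others 1389 kept side and direction, 17 no longer passed FDR 0.05, 89 newly passed it and 28 changed sign, and 41 list medians, which have no test, moved by over 1 SD between libraries. The 3 libraries a site and 5 to 27 G1 cells a library limit what could be called.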
